A study of Arabidopsis thaliana with 18 samples.

Results

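The methylation of every nuclear gene was compared between unstressed leaves of 3 strs2 plants and 3 WT plants. Genes were all 33056 nuclear loci of the 33341 loci in the deposited count tables, the remainder being chloroplast and mitochondrial, and none was picked by its methylation. For each gene and plant the weighted methylation level was the sum of methylated calls over the sum of all calls between the start and the end of the gene, from cytosines read at least 4 times. Each of the CG, CHG and CHH contexts (H stands for any base but G) was kept apart.

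The series asked whether Arabidopsis thaliana with a disturbed methylome still acquires priming by repeated excess light, and MethylC-seq, which counts methylated and unmethylated cytosines after bisulfite conversion, was the assay for 6 of its 18 samples. All 6 plants were Col-0, 3 weeks old and not exposed to excess light, and DNA was taken from true leaves. WT carried no insertion. The strs2 plants carried a T-DNA in STRS2 (AT5G08620), a DEAD-box RNA helicase, and came from 1 insertion line, so that loss of STRS2 and other differences carried by that line cannot be told apart. The 3 plants of a genotype were independent plants, and are called WT-r1 to WT-r3 and strs2-r1 to strs2-r3 by their replicate numbers, which do not pair the genotypes.

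Plants methylate cytosines through separate routes. CG methylation is copied onto the new strand at replication by MET1 with the help of VIM proteins, CHG methylation is kept up by CMT3 together with a histone mark, and CHH methylation is placed anew by DRM2 under the guidance of small RNAs (RNA-directed DNA methylation, RdDM) or by CMT2. Many expressed genes carry CG methylation alone within the body, whereas transposons and some silent genes carry all 3 contexts. ROS1 and DEMETER (DME) cut methylated cytosines out again.

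The mean depth of CG cytosines was 7.19 to 9.71 in the 6 plants, WT-r3 being read most deeply, and 31993485 to 50128738 CG calls were kept per plant. By plant these calls numbered 39113527, 31993485 and 50128738 in WT and 36716842, 39563385 and 33224381 in strs2, fewer in total in strs2. Chloroplast CHH levels, which set an upper limit on unconverted cytosine, were 0.434 to 0.586%. In the STRS2 gene, the widest stretch without a listed cytosine was 13 to 18 bp in WT and 45 to 96 bp near the gene start in strs2, which fits the labels.

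Stretches of 4 genes show what the largest differences looked like at the level of sequence. Each run is the 200 bp of the gene, outside untranslated regions, in which the CG difference between the genotypes was largest, written 5′ to 3′ on the forward strand with every CG in capitals (TAIR10 coordinates, bases from the RefSeq TAIR10.1 assembly). In AGL85 (AT1G54760, chr1:20433936-20434135), a MADS-box gene of 1 exon, 12 CG sites lie in coding sequence. In AT5G04435 (chr5:9818927-9819126), a lncRNA on the reverse strand, there are 11. AT1G75945 (chr1:28515413-28515612, reverse strand, protein of unknown function) has 9 in a coding exon and the intron next to it, and AT4G13992 (chr4:8088719-8088918, coding sequence of a cysteine/histidine-rich C1 domain protein) has 7.
AGL85: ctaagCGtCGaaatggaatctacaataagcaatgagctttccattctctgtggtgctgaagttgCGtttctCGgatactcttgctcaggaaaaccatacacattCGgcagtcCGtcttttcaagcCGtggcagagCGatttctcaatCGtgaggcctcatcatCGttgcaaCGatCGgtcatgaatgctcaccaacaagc
AT5G04435: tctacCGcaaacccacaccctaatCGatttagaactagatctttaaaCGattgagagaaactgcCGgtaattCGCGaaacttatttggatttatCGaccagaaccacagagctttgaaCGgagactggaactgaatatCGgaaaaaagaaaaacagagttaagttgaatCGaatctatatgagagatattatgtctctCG
AT1G75945: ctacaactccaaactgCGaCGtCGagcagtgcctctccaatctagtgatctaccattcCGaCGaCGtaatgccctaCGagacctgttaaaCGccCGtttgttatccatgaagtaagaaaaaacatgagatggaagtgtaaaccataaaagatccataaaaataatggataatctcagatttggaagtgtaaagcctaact
AT4G13992: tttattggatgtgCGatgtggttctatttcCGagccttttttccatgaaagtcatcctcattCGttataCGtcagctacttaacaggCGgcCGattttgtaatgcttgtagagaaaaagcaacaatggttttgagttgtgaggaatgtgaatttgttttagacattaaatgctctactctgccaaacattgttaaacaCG

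The CG sites printed for AGL85 were methylated in 2.35, 1.97 and 0.459% of calls in WT and in 89.8, 92.0 and 85.7% in strs2. Those of AT5G04435 were at 0.526, 0% and 0.870% in WT and at 72.2, 69.4 and 72.5% in strs2. Both stretches were therefore unmethylated in every WT plant and methylated in every strs2 plant. The stretch of AT1G75945 went the other way, from 92.4, 68.0 and 92.9% in WT to 0%, 0.685 and 3.49% in strs2. That of AT4G13992 had 82.6, 70.7 and 81.9% in WT against 0%, 5.08 and 0% in strs2. The other contexts of the same 200 bp moved in the same direction in each case. CHG went from 0.560 to 40.8% in AGL85 and from 48.2 to 0.446% in AT1G75945, as pooled levels of WT and strs2. These stretches were chosen for their difference, so the values describe them and are no test.

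Summed over all gene spans, CG methylation was 15.5, 15.4 and 15.2% in WT and 15.5, 15.7 and 15.9% in strs2, a difference of 0.333 points between means of 15.4 ± 0.147% and 15.7 ± 0.183% (SD, n = 3 plants each). The groups did not overlap, and the two-sided exact permutation test gave p = 0.1, the smallest it allows with 3 plants against 3, or 0.3 after adjustment over 3 contexts. CHG was 1.18 ± 0.056% and 1.20 ± 0.0565%, and CHH 0.683 ± 0.0541% and 0.665 ± 0.037% (SD, n = 3 plants each), with overlapping plants in both contexts (exact permutation p = 1 and 0.8). The CHH levels lie little above the chloroplast CHH levels, and WT-r2 was highest in both. With this number of plants no context could pass a threshold of 0.05.

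Single genes differed in both directions. Genes were tested in a context where every plant had at least 20 calls and the 6 plants together at least 10 methylated calls, which left 26018 genes in CG, 24748 in CHG, 31262 in CHH and 31369 in at least 1. In CG, 3874 genes differed (14.9% of those tested), 2019 with a higher level (7.76%) and 1855 with a lower level (7.13%) in strs2, at a Benjamini-Hochberg adjusted p below 0.05 in a quasi-binomial test with dispersions moderated across genes. In CHG, 135 genes differed (0.545%), of which 97 were higher (0.392%) and 38 lower (0.154%). In CHH, 58 genes differed (0.186%), 40 of them higher (0.128%) and 18 lower (0.0576%). The plants of the genotypes did not overlap in 28.3% of genes tested in CG, 10.7% in CHG and 9.73% in CHH. With 3 plants against 3, random order alone sets a share of about 0.1 apart, and the CHG and CHH shares lie near it. Because the minimum on methylated calls can be met through 1 genotype alone, 853 of the CG genes, 36 of the CHG genes and 3 of the CHH genes had under 10 methylated calls in the lower genotype.

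These counts changed with the cytosines kept and when single plants were left out. With cytosines read at least 8 times in a plant, 41 genes were higher and 27 lower in CG, of 23028 tested. With cytosines read at least 8 times in all 6 plants 936 were higher and 860 lower, of only 6341 tested. That is a larger share than in the main test. With cytosines read at least 4 times in all 6 plants the counts rose, to 2559 higher and 2306 lower of 24093 tested. Leaving out WT-r3, the deepest sample, left 1252 higher in CG, leaving out strs2-r1 left 18 lower in CHG, and leaving out WT-r1 left 24 higher in CHH. These were the lowest counts of such fits, which hold fewer plants and have less power. Other such fits called more genes, with 140 in CHG without WT-r2 (against 135) and 65 in CHH without strs2-r1 (against 58).

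Most CG differences were small. The median size over the 3874 genes was 4.98 percentage points, with quartiles of 3.06 and 7.24. A difference of 10 points or more was reached by 480 genes, 260 higher and 220 lower, and 50 points by 17 genes, 8 higher and 9 lower. Genes that rose went from a median of 6.40% in WT to 13.1% in strs2, and genes that fell from 8.73 to 2.97%. The 135 CHG genes had a median size of 6.15 points and 41 of them reached 10 points, whereas the 58 CHH genes had a median of 2.51 points and 3 reached 10.

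The contexts moved together in few genes, and then nearly always in the same direction. Of 3944 genes that differed in any context, 3851 did so in 1 context, 63 in 2 and 30 in all 3. CG was the sole context for 1963 genes that rose and 1821 that fell. Of the 3874 CG genes, 3441 could be tested in CHG and 3838 in CHH, and an untested context counts here as no difference. In CG and CHG together 81 genes differed, 53 higher in both and 28 lower in both. They were 2.09% of the CG genes and 60% of the CHG genes. CG and CHH were shared by 39 genes, 1.01% of the CG genes and 67.2% of the CHH genes, of which 38 moved the same way. The exception, AT2G21920, fell by 7.94 points in CG and rose by 1.96 points in CHH, and is named after its values were seen. CHG and CHH were shared by 33 genes, again all in the same direction, which is 24.4% of the CHG genes and 56.9% of the CHH genes. Of the 30 genes with all 3 contexts, 22 were higher and 8 lower in strs2.

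**Figure D1:**
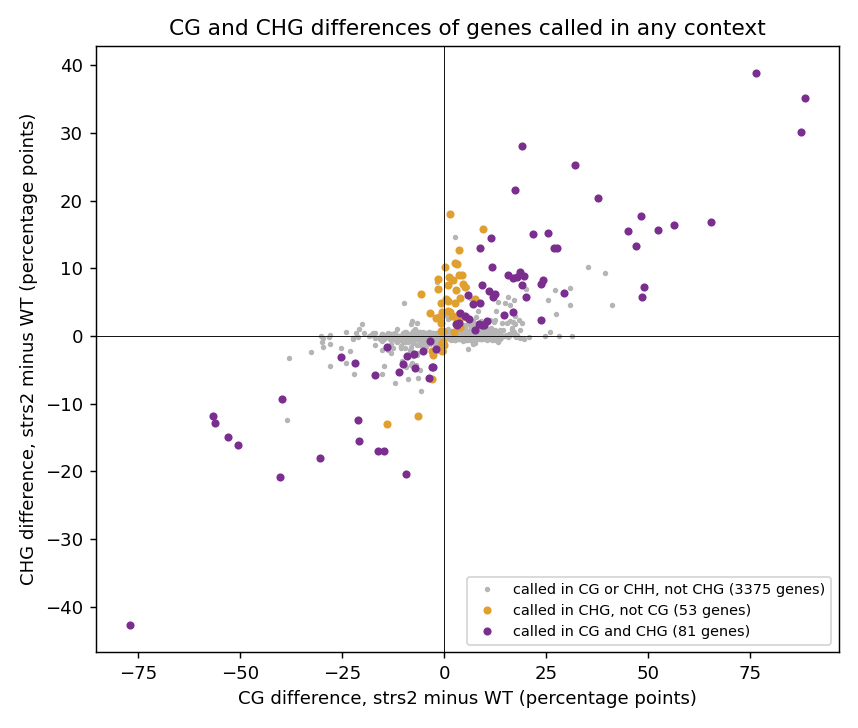
Difference in CHG level against difference in CG level (both strs2 minus WT, percentage points) for the 3509 genes that differed in any context and were tested in CG and CHG, each point 1 gene, coloured by the contexts in which it passed the test. The 81 genes of both contexts lie along the diagonal, in the upper right or lower left, while most other genes spread along the CG axis at a CHG difference near 0.

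Across genes, which are not independent replicates, the correlation of the CG and CHG differences was weak over the 23651 genes tested in both (Pearson r = 0.373, Spearman rho = 0.110). Over 134 genes that differed in CHG it was r = 0.837 and rho = 0.808, and 122 of them had the same sign in CG. Over the 3441 genes that differed in CG it was r = 0.593 and rho = 0.225. For CG and CHH, r was 0.203 and rho 0.0797 over 25914 genes, and 0.609 and 0.715 over the 56 that differed in CHH. CHG and CHH gave r = 0.436 and rho = 0.190 over 24742 genes, and 0.686 and 0.812 over 58. All levels of a gene come from the same libraries and from neighbouring cytosines. The median tested gene had 0.497% CHG and 0.496% CHH in WT. Chloroplast levels were 0.414 to 0.521% in CHG and 0.434 to 0.586% in CHH. For many genes CHG and CHH differences therefore cannot be told from unconverted cytosine. The part of this in the weak correlations and in the low shares called in CHG and CHH was not tested. Most genes that differed in CHG or CHH differed in CG as well. Most that differed in CG passed the test in that context alone, with untested contexts counted as no difference.

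**Figure D2:**
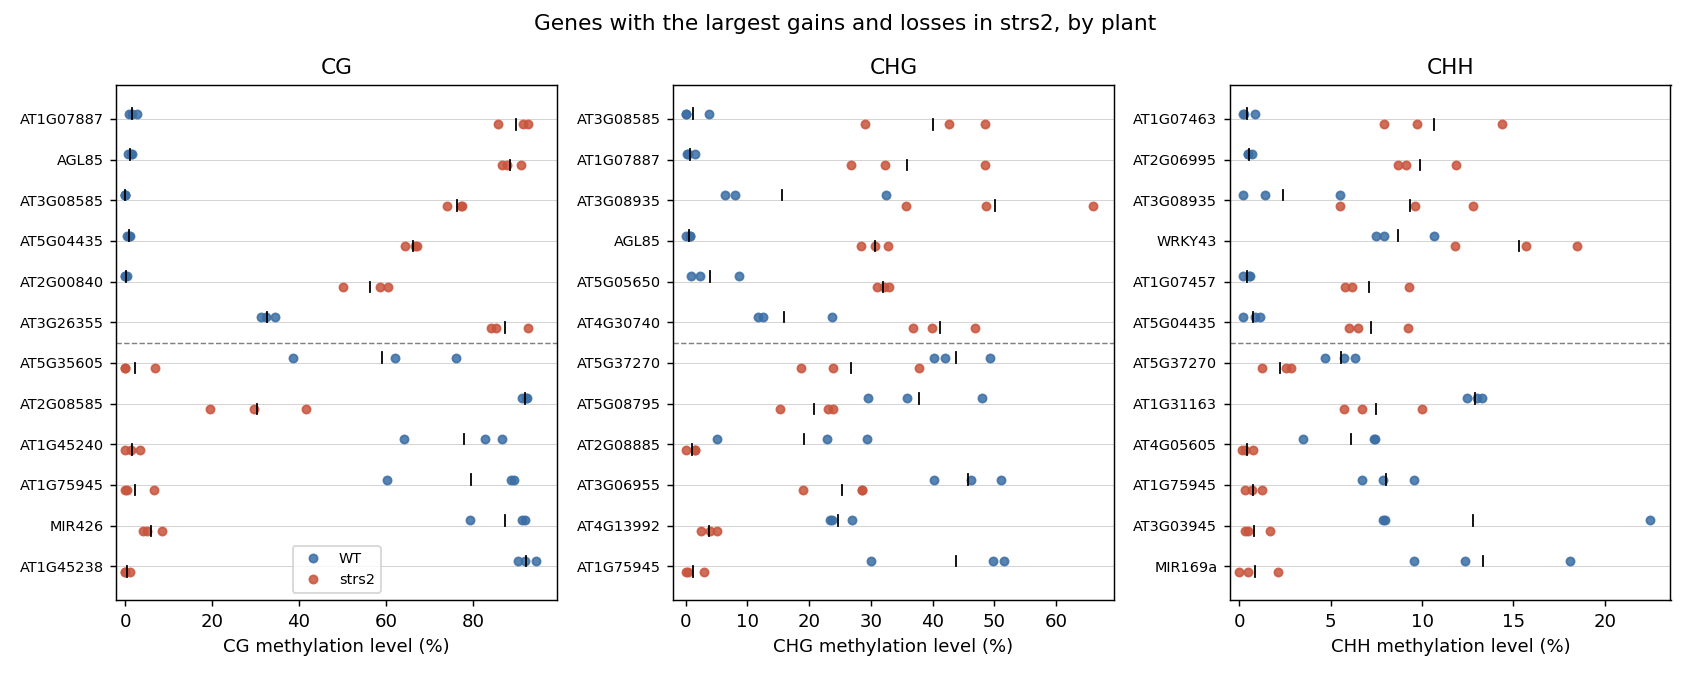
Methylation level (%) of each plant for the 6 genes with the largest gain (above the dashed line) and the 6 with the largest loss (below it) in CG, CHG and CHH, WT in blue and strs2 in red, with a black bar at the mean of 3 plants. Genes were required to pass the test and to have no overlap between the genotypes, so the separation is part of how they were chosen. AT1G07887, AGL85 and AT3G08585 are among the 6 gains of both CG and CHG, and AT1G75945 is among the losses of all 3 contexts.

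The largest gain was in AT1G07887, an antisense lncRNA (chr1:19963067-19964105, forward strand, 1039 bp). Its CG level was 1.54, 2.64 and 0.827% in WT and 91.5, 92.7 and 85.9% in strs2, a gain of 88.3 ± 2.17 points (SE, adjusted p = 4.4e-11). CHG went from 0.213, 1.44 and 0.325% to 26.7, 48.5 and 32.2%, and CHH from 0.448, 0.792 and 0.122% to 5.33, 6.85 and 5.02% (adjusted p = 7.7e-26 and 3.3e-08). No plant of one genotype came near the other in any context. All 9 windows of 100 bp with enough calls were apart by 30 points or more, while the 1 kb before the gene stayed below 1.5% CG in all 6 plants. CG calls in strs2 were 0.693 times those in WT, a larger shortfall than that of strs2 over the whole genome. The part of this in the result was not tested. A copy elsewhere in the genome was 92.0% identical over at least 50% of the gene.

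The locus overlaps MRD1 (AT1G53480, reverse strand), annotated as responding down in the mto1 mutant, and the start of HEI10 (AT1G53490), which acts in meiotic crossover formation, so all 3 genes share cytosines. MRD1 had CG levels of 1.12, 1.9 and 0.729% in WT and 46.2, 54.2 and 47.8% in strs2, with gains of 17.8 points in CHG and 3.40 points in CHH. HEI10 rose by 29.2 points in CG and 6.30 points in CHG. These are 1 methylated stretch counted under 3 genes, and MRD1 and HEI10 were named after their values were seen.

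AGL85 gained in the whole of its 486 bp (chr1:20433912-20434397, forward strand). CG was 1.51, 1.29 and 0.578% in WT and 87.9, 91.1 and 86.8% in strs2, a gain of 87.4 ± 1.31 points (SE, adjusted p = 4.4e-11). CHG went from 0.752, 0% and 0.673% to 28.4, 32.8 and 30.6%, a gain of 30.1 points, and CHH by 3.65 points (adjusted p = 2.3e-05). Unlike AT1G07887, AGL85 lay next to DNA that was methylated in both genotypes, with 52.0, 54.7 and 44.0% CG in the 1 kb before the gene in WT and 56.9, 50.2 and 57.5% in strs2 (adjusted p = 0.66).

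The other leading CG gains were also short and mostly non-coding. The lncRNA AT3G08585 (256 bp, chromosome 3) had 0% CG in all 3 WT plants and 77.6, 77.3 and 74.1% in strs2 (35 to 82 calls per plant), with CHG at 0%, 3.75 and 0% against 48.5, 42.6 and 29.0%. It is 94.2% identical to 1 other locus. Its upstream 1 kb rose too, by 16.9 points in CG and 11.8 points in CHG. AT5G04435 rose by 65.3 points in CG, 16.9 in CHG and 6.49 in CHH, and the 1 kb before it stayed near 0 in CG. AT2G00840, a transcript of unknown class, had 0%, 0 and 0.389% CG in WT against 60.5, 50.2 and 58.7% in strs2, with 16.4 points in CHG. CHH calls were the least stable among these, since that of AT2G00840 was lost without WT-r1 (adjusted p = 0.0617) and that of AT3G08585 without WT-r2 (adjusted p = 0.0625). AT3G26355 (64 bp, within AT3G26350) started from an intermediate CG level, with 34.5, 31.2 and 32.4% in WT and 84.2, 92.8 and 85.3% in strs2.

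**Figure D3:**
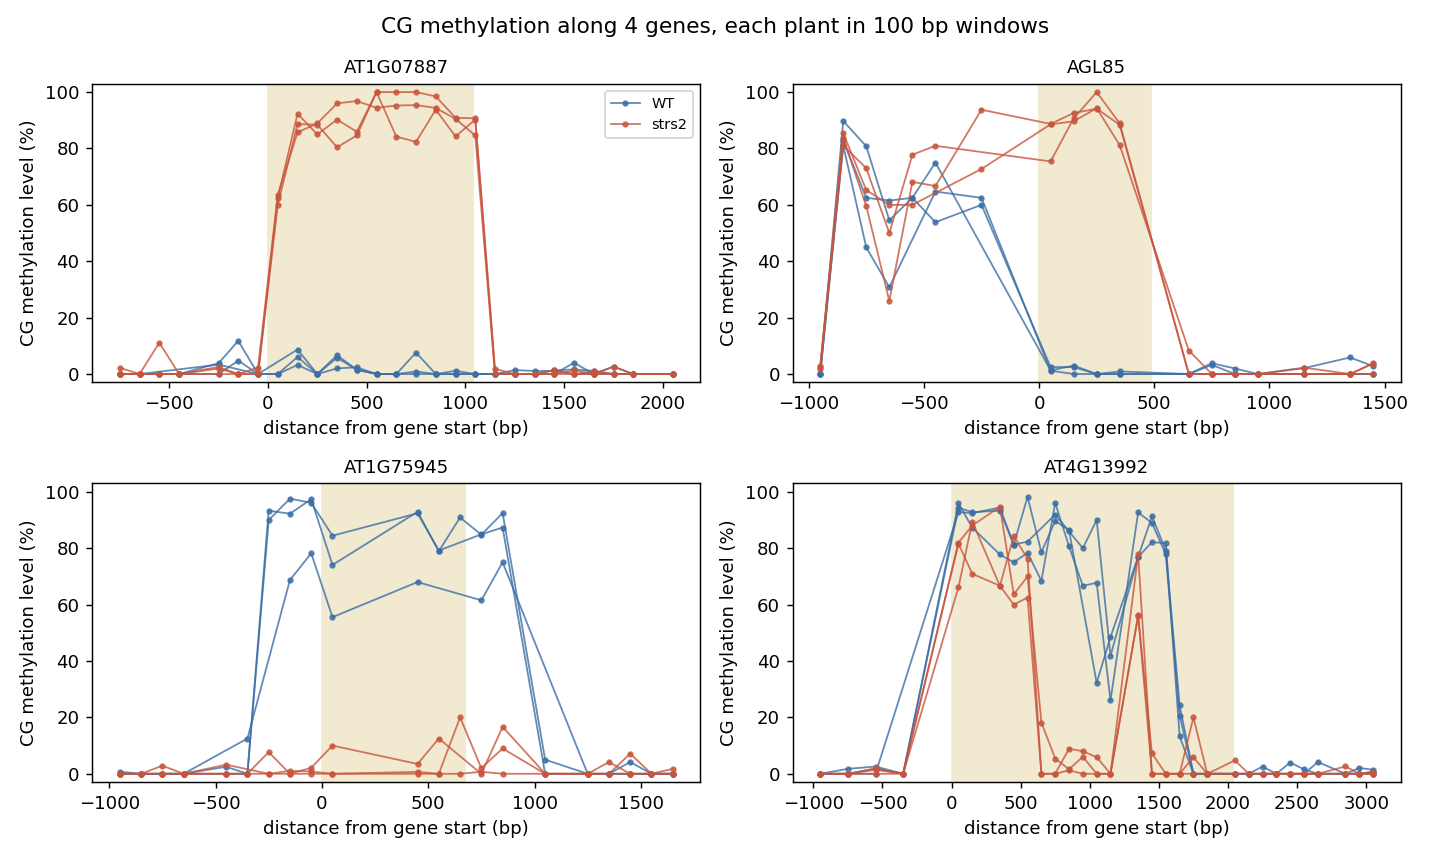
CG methylation level (%) along 4 genes in 100 bp windows, by distance from the gene start (bp), each line 1 plant and the gene shaded, WT in blue and strs2 in red. In AT1G07887 the 3 strs2 plants are methylated within the gene and no plant outside it, in AGL85 the strs2 plants continue a methylated stretch that ends before the gene in WT, in AT1G75945 the WT plants alone are methylated, and in AT4G13992 the strs2 plants lack methylation in a part of the gene away from its start.

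The largest losses in CG included transfer RNAs and small RNAs, RNA classes with short genes that hold few cytosines. AT1G45238, a tRNA-Pro gene of 72 bp, had 90.3, 94.6 and 92.0% CG in WT and 1.00, 0% and 0% in strs2, a loss of 92.0 points (adjusted p = 9.3e-09), while its CHH level was below 2% in all plants. Its neighbour AT1G45240, also tRNA-Pro, fell from 64.0, 82.9 and 86.7% to 3.33, 0% and 1.32%, and the 1 kb before it from 49.0, 45.9 and 46.7% to 5.73, 7.12 and 6.30%. Both tRNA genes lie within AT1G45229, so that the body of that gene and the tRNAs cannot be told apart. AT1G45238 and AT1G45240 each have 66 copies at 90% identity or more over at least 50% of the gene, some identical, and their reads cannot all be placed with certainty. AT5G35605, a tRNA-Arg gene with 7 copies, had 38.6, 76.2 and 62.2% in WT and 0%, 0% and 6.82% in strs2.

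MIR426, a miRNA precursor, fell from 79.3, 91.3 and 91.9% CG to 4.17, 5.13 and 8.57% (23 to 58 calls per plant, adjusted p = 2e-05). The snoRNA gene AT2G08585 (snoR90b), of the class that guides modification of ribosomal RNA, fell from 91.3, 92.5 and 92.2% to 29.7, 19.5 and 41.7%. Among protein-coding genes the largest loss was in AT1G75945 (chr1:28515245-28515916, reverse strand). CG was 89.6, 60.2 and 88.8% in WT and 0%, 0.467 and 6.58% in strs2, CHG 51.6, 30.0 and 49.8% against 0%, 0.444 and 2.96%, and CHH 9.55, 6.70 and 7.85% against 0.681, 0.292 and 1.25%. WT-r2 was the lowest WT plant in all 3 contexts and still lay far above every strs2 plant. The loss reached into the 1 kb before the gene, where CG went from 36.1, 29.1 and 43.8% to 0.659, 0.179 and 0.688%.

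Some genes switched between states. By a rule set after values were seen, a switch was a CG level below 5% in all plants of one genotype and above 30% in all plants of the other. This was met by 17 genes, 12 that gained and 5 that lost methylation in strs2. Of the 12 gains, 8 gained CHG methylation and 7 gained CHH methylation. Only 9 could be tested in CHG, and the gains left untested had CHG levels of 0 to 1% in every strs2 plant. CHG levels of the gains were low in WT, so the minimum on methylated calls was met largely through strs2. The 9 were thus already selected for CHG signal in strs2, and 8 of 9 is no separate test. AT1G07887 and MRD1 both count among the 12 gains, although they share 1 methylated stretch. Of the 5 losses (AT1G45238, AT1G45240, AT3G08595, AT1G08613 and the snoRNA AT2G43141), 3 could be tested in CHH, where 0 passed and 0 had an unadjusted p below 0.05, also with edgeR, and none had enough methylated CHG calls to be tested. Beside the genes given above, the gains included MIR399b, whose miRNA acts in phosphate starvation by repressing PHO2, with 0% CG in every WT plant and 34.0, 39.7 and 55.4% in strs2 (adjusted p = 3.3e-05). LCR26, which encodes a small cysteine-rich protein, went from 1.29, 0.625 and 2.11% to 38.8, 42.5 and 40.9%.

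Several of the leading CHG gains began from a gene that was already methylated in CG. AT5G05650, related to fasciclin-like arabinogalactan proteins of the cell wall, had CHG levels of 0.889, 8.70 and 2.29% in WT and 32.1, 30.9 and 32.9% in strs2 (adjusted p = 5.1e-14), while CG was already 62.6, 78.8 and 66.7% in WT and reached 91.3, 87.4 and 86.3%. AT4G30740, a QWRF motif gene with a copy 97.4% identical, rose from 12.5, 23.6 and 11.7% CHG to 36.8, 39.9 and 46.9%, with gains of 31.9 points in CG and 6.31 points in CHH. The lncRNA AT3G08935 had 8, 32.4 and 6.33% CHG in WT and 66.0, 48.6 and 35.7% in strs2 (25 to 79 calls), and its call was lost without WT-r3 (adjusted p = 0.394) or strs2-r1 (0.292).

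AT4G13992 lost CHG methylation in every strs2 plant. CHG was 23.6, 26.9 and 23.4% in WT and 3.93, 2.48 and 5.10% in strs2, a loss of 20.8 points (adjusted p = 1.3e-20), and CG was 74.6, 69.7 and 70.9% against 34.9, 25.2 and 34.4%. Over cytosines read at least 8 times in all 6 plants the CHG difference was -12.3 points and did not pass the test (adjusted p = 0.0965). Of 15 windows of 100 bp, 6 were apart by 30 points or more, and those nearest the gene start were methylated in all plants.

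Outside the 6 largest CHG losses, the lncRNA AT4G05605 fell by 50.6 points in CG, 16.1 in CHG and 5.69 in CHH. Of the 6 largest CHG losses, 4 lost their call when single plants were left out. Such fits hold 1 plant fewer and have less power, so a lost call alone does not show dependence on that plant. The lncRNA AT3G06955 (51.0, 46.2 and 40.2% against 28.6, 28.6 and 18.9%) lost its call when any plant but WT-r3 was left out. The adjusted p was 0.0517 to 0.417. Its difference was -17.2 to -22.0 points in these fits and -20.4 points with all plants. AT2G08885 (5.00, 22.9 and 29.4% against 1.59, 1.49 and 0%) lost it without WT-r3 (adjusted p = 0.283), strs2-r1 (0.0828) or strs2-r2 (0.0521). AT5G08795, which has 13 copies, lost it without WT-r3 (adjusted p = 0.644), strs2-r1 (0.515) or strs2-r3 (0.0534). AT5G37270, a RING/U-box gene, lost it without WT-r3 (adjusted p = 0.0781) or strs2-r2 (0.147). Without WT-r3 the difference was smaller in AT2G08885 (-12.9 points against -18.1), AT5G08795 (-11.9 against -17.0) and AT5G37270 (-14.25 against -17.0).

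In CHH, the largest gains were in lncRNAs. AT1G07463 and AT1G07457 overlap on opposite strands of chromosome 1 and share cytosines. AT1G07463 had 0.254, 0.230 and 0.836% CHH in WT and 9.70, 14.4 and 7.91% in strs2 (adjusted p = 2.3e-07), with a CG gain of 19.5 points. With cytosines read at least 8 times in a plant, the CHH difference was 2.78 points in AT1G07463 (adjusted p = 0.923) and 1.76 in AT1G07457 (0.71, from 6.63), so neither call held. AT2G06995 had 0.493, 0.668 and 0.462% in WT and 9.10, 11.8 and 8.67% in strs2 (adjusted p = 2.5e-10). It also gained 21.6 points in CHG and 17.2 in CG, and its upstream 1 kb rose in all 3 contexts, by 24.0 points in CG, 14.2 in CHG and 5.46 in CHH. At a depth of 8 the gains of the gene were 11.9 points in CHG and 4.71 in CHH, both past the threshold.

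WRKY43, a WRKY transcription factor gene, passed the test in CHH alone. CHH was 10.7, 7.45 and 7.89% in WT and 15.7, 18.5 and 11.8% in strs2 (adjusted p = 0.0085), beside differences of 4.18 points in CG (adjusted p = 0.183) and 1.32 points in CHG (0.991). Over cytosines read at least 4 times in all 6 plants the CHH difference was 1.45 points (adjusted p = 0.978). The call was also lost without WT-r2 (adjusted p = 0.0655) or WT-r3 (0.0856) and with edgeR (0.557).

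The largest CHH loss was in MIR169a (AT3G13405), whose miRNA represses NF-YA transcription factor mRNAs. CHH was 18.1, 9.54 and 12.4% in WT and 2.13, 0.472 and 0% in strs2, a loss of 12.5 points (adjusted p = 4.3e-05). CG fell by 8.84 points, from 14.7, 2.56 and 12.4% to 2.30, 0.877 and 0%, a call that was lost without WT-r1 (adjusted p = 0.0584), WT-r3 (0.0748), strs2-r2 (0.0733) or strs2-r3 (0.0531). The precursor is printed 5′ to 3′ on its own strand (chr3:4358994-4359219, reverse strand, TAIR10), with capitals at the 8 of 47 CHH positions that lost 20 points or more, among positions with at least 8 calls pooled in each genotype. A capital G marks a cytosine on the other strand. The pooled levels at these 8 positions were 25 to 32% in WT and at most 4.55% in strs2, and they were chosen for that difference.
MIR169a: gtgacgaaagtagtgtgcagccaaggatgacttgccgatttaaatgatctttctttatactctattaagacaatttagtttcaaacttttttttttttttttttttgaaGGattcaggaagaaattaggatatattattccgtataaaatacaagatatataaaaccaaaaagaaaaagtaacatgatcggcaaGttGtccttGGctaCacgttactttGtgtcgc

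The lncRNA AT3G03945 fell from 22.5, 7.88 and 7.97% CHH to 0.471, 1.67 and 0.306%, and from 60.8, 26.0 and 30.4% CG to 0%, 1.64 and 0%. WT-r1 held the highest value in both contexts, and without it the CHH difference was -7.10 points in place of -12.0, still past the threshold. AT1G31163, an F-box associated gene, fell from 13.3, 13 and 12.5% CHH to 6.73, 5.72 and 9.98% (adjusted p = 0.00065). Over cytosines read at least 4 times in all 6 plants the difference was -0.278 points (adjusted p = 0.999), and it did not pass the test with edgeR (adjusted p = 0.205). MIR169a and AT3G03945 passed with edgeR, and neither passed with limma on log ratios (adjusted p = 0.0949 and 0.108).

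The CG differences sat away from the start of genes. In 3592 genes with enough calls, cut into 3 equal parts, the median CG level in WT was 0.534% in the first part, 8.49% in the middle part and 7.18% in the last. The median size of the difference was 0.375, 5.21 and 5.15 points in the same order. The largest difference of a gene was in the first part in 13.6% of genes, in the middle part in 43.7% and in the last in 42.7%. The first part held little methylation in WT, which bounds the losses that could be seen there.

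Genes with a CG level of 2 to 10% were called most often. The share was 30.2% among 4800 genes with a mean level of 2 to 10% over both genotypes, 17.2% among 6825 genes of 10 to 30%, 13% among 3379 genes of 30 to 60% and 4.40% among 1638 genes above 60%. Below 2% it was 7.86% of 9376 genes. The direction shifted along this range, from 700 higher and 749 lower at 2 to 10% to 269 higher and 170 lower at 30 to 60%. Genes that also carry CHG methylation were called less often in CG and more often in CHG: with a mean CHG level above 5%, 6.47% of 1946 genes differed in CG and 4.14% of 1983 in CHG, against 15.3% of 21705 and 0.233% of 22765 genes at 5% or less. These bins use the levels that were tested, and are a description.

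**Figure D4:**
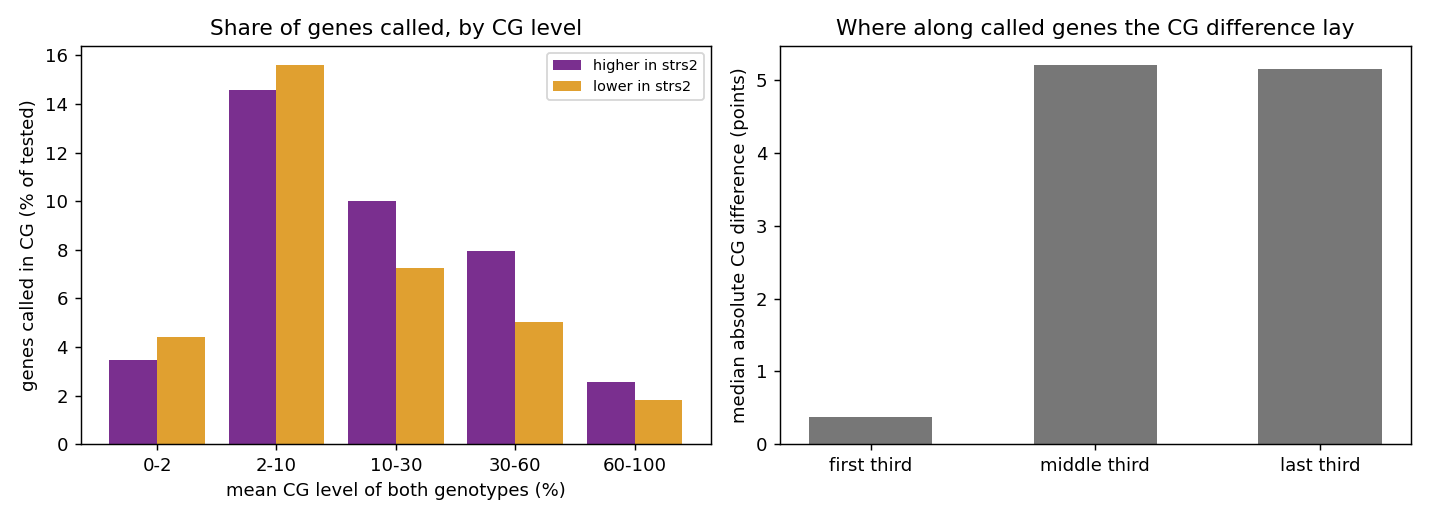
Left, genes that differed in CG as a share of genes tested (%), by the mean CG level of both genotypes (%), with genes higher in strs2 in purple and genes lower in strs2 in orange. Right, median absolute CG difference (percentage points) in the first, middle and last of 3 equal parts of 3592 genes. The share is highest at a level of 2 to 10%, and the difference in the first part is 0.375 points against 5.21 and 5.15 in the others.

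Few differences of the gene continued into the 1 kb before it. Of 19129 upstream regions tested in CG, 2155 differed (11.3%), 1069 higher (5.59%) and 1086 lower (5.68%). Of 2314 CG genes whose upstream region was tested, 319 had an upstream difference as well (13.8%), and 162 of these were in the direction of the gene. In CHG, 170 of 16325 upstream regions differed (1.04%), 102 higher (0.625%) and 68 lower (0.417%), and 10 of the 75 CHG genes had one (13.3%), always in the direction of the gene. In CHH, 39 of 32745 regions differed (0.119%), 21 higher (0.0641%) and 18 lower (0.055%), and 2 of the 58 CHH genes had one (3.45%). Without WT-r1 the CHG count was 108 and without WT-r3 it was 100, and the CHH count without WT-r3 was 22. The plants of the genotypes did not overlap in 23.3% of upstream regions in CG, 11.2% in CHG and 10.3% in CHH. The CHG and CHH shares again lie near the share of about 0.1 that random order gives. Some upstream regions overlap a neighbouring gene.

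By class of gene, protein-coding genes made up most of the list, with 1890 higher and 1708 lower in CG of 24304 tested (14.8%). lncRNAs had 87 higher and 101 lower of 1162 (16.2%), and tRNA genes 5 higher and 11 lower of 70 (22.9%). Of 178 miRNA loci, 28 had enough calls for CG, and 6 were higher and 6 lower. For short genes the minimum of 10 methylated calls admits mainly those methylated in at least 1 genotype, so these shares are of genes already selected for signal. In CHG, non-coding loci differed in 20 cases upward and 9 downward of 1244 (2.33%), and protein-coding genes in 77 and 29 of 23504 (0.451%).

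Among protein families found by words of the RefSeq product name, F-box genes, which choose targets for ubiquitination, differed in CG in 70 cases upward and 75 downward of 585 (24.8%), and in CHG in 9 and 3 of 535 (2.24%). Disease resistance genes differed in CG in 19 and 25 of 184 (23.9%), with medians over the tested members of -0.0949 points, and F-box genes had a median of -0.0806 points, beside 0.0106 points over all genes tested in CG. Kinase genes (16.0% of 1354) and cytochrome P450 genes (16.0% of 244) were near the 14.9% of all genes. Both directions were present in each of these families.

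Among genes that could be tested, those not detected in WT leaves were called more often. With no count in any of the 3 mRNA libraries of naïve, untriggered WT plants, 18.3% of 5178 genes differed in CG and 1.51% of 4370 in CHG. Above 1 CPM in all 3 libraries, it was 13.3% of 14898 genes and 0.189% of 14854. The 5178 came from 9704 undetected loci and the 14898 from 15718 expressed loci, so these are shares of genes already selected for signal. Over all loci, 450 rose and 497 fell in CG of 9704 undetected, against 1082 and 896 of 15718 expressed. There the CG share was the lower one for undetected loci. mRNA was sequenced in WT alone, and the labels do not say whether it came from the plants used for DNA. By the methods, MethylC-seq used paired samples, aliquots of a single plant's ground tissue, but the paired libraries are not named. Of the 3 libraries, 1 stands apart from the others, and no expression of strs2 was measured. The 5 chromosomes had 14.4 to 15.2% of their genes called in CG. Within 2 Mb of the window with the highest CHG level of each chromosome, taken as the pericentromeric centre, 12.9% of 1537 genes were called in CG and 1.25% of 1437 in CHG, against 15.0% and 0.502% farther out.

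The STRS2 gene itself did not differ in any context over its span (CG difference -1.92 points, adjusted p = 0.34). The 1 kb before it rose from 4.70, 9.30 and 6.30% CG to 19.5, 22.3 and 21.9% in strs2. The gain was 14.5 ± 1.62 points (SE, adjusted p = 0.0018). There were 129 to 270 calls per plant, 0.771 times as many in strs2 as in WT. The strs2 plants also had fewer CG calls over the whole genome, by a smaller share. Of the 59 genes tested within 100 kb of STRS2, 2 were higher and 3 lower in CG, a share of 8.47% beside 14.9% of all genes.

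Over their spans, genes of the methylation machinery passed the test in CG alone. Of 27 RdDM genes, all tested, 3 rose and 1 fell, and the median difference over the list was 0.696 points. AGO4, the Argonaute protein that carries heterochromatic small RNAs, had 27.0, 23.9 and 25.2% CG in WT and 33.3, 35.0 and 30.1% in strs2, a gain of 7.44 points (adjusted p = 0.0039). CLSY2 (CHR42), a remodelling factor of RNA polymerase IV, rose from 18.1, 17.2 and 16.7% to 22.4, 23.3 and 22.7% (5.48 points, adjusted p = 0.0016). The plants of the genotypes lay apart in both genes, and both calls held when any 1 plant was left out. Over cytosines read at least 8 times in all 6 plants the CLSY2 difference was 1.88 points (adjusted p = 0.498).

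RDM1, which links the machinery of RNA polymerase V, rose by 2.91 points (adjusted p = 0.022), but not without WT-r1 (0.0806), WT-r3 (0.0519), strs2-r1 (0.0863) or strs2-r2 (0.0676). IDN2, a protein that binds double-stranded RNA, fell by 5.50 points (adjusted p = 0.034), and its call was lost without any plant but WT-r2 (adjusted p of 0.0642 to 0.117) and with edgeR (0.227). Of 13 maintenance genes 1 fell, VIM1, with 14.3, 13.4 and 11.4% against 9.06, 8.84 and 9.38% (adjusted p = 0.021). That call was lost without WT-r1 (adjusted p = 0.0761), strs2-r1 (0.06) or strs2-r2 (0.0783).

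Of 9 demethylation genes, 1 rose and 4 fell in CG, with a median difference of -1.47 points beside 0.0106 points over all genes tested. IDM1 (ROS4), a histone acetyltransferase that recruits ROS1, fell from 31.4, 33.1 and 31.3% to 23.4, 25.7 and 25.9% (adjusted p = 0.0037), a difference of -6.92 points that was -4.20 points over cytosines read at least 4 times in all 6 plants. The body of ROS1 (DML1) fell from 28.0, 28.5 and 27.4% to 24.6, 23.6 and 23.4% (adjusted p = 0.019), but not without strs2-r2 (0.0678) or strs2-r3 (0.0617). DME rose from 24.4, 28.0 and 24.9% to 31.0, 31.1 and 29.7% (adjusted p = 0.01), but not without WT-r3 (0.0562). For all 3 genes the plants did not overlap between the genotypes.

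The other losses of the demethylation list also lost their calls when single plants were left out, in fits with less power. IDM2 (AT1G54840), a chaperone-like partner of IDM1, fell by 6.18 points (adjusted p = 0.041). The call was lost without WT-r1 (adjusted p = 0.0673), WT-r3 (0.192) or strs2-r1 (0.174). The difference was -6.58, -5.16 and -3.98 points in these fits. APE1L (AT3G48425), an endonuclease that acts after ROS1, fell by 5.93 points (adjusted p = 0.035). The call was lost without WT-r1 (adjusted p = 0.0862), WT-r3 (0.112), strs2-r1 (0.177) or strs2-r3 (0.0578). The difference was -5.58, -5.70, -3.93 and -6.45 points in these fits. Of the 49 genes of the RdDM, maintenance and demethylation lists, 0 passed the test in CHG or CHH, where 4 had an unadjusted p below 0.05 in each context, and edgeR called 0 as well.

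Of 19 genes whose expression is known to depend on methylation, 18 were tested in CG, and 1 rose and 2 fell. SNC1, an immune receptor gene in a repetitive cluster, went from 21.8, 21.1 and 21.3% to 17.2, 16.4 and 17.4% (adjusted p = 0.0078). PHE1, an imprinted MADS-box gene, went from 7.10, 7.97 and 4.95% to 0.240, 0.414 and 2.10% (adjusted p = 0.0019), and FIS2, a Polycomb gene of the seed, rose by 1.03 points from levels below 0.5% (adjusted p = 0.015, lost without WT-r1 at 0.0608). Chosen after its values were seen, the 1 kb before MEA, another imprinted Polycomb gene, went from 23.3, 18.3 and 29.1% CG to 0%, 0% and 2.24% (adjusted p = 5.1e-05).

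Of 20 drought, cold and heat response genes, 19 were tested in CG and 2 rose. HSFA3, a heat shock transcription factor, rose by 2.95 points (adjusted p = 0.0078) from 1.08, 2.28 and 1.71%. DREB2B, a dehydration response factor, rose by 1.18 points from 0.736, 0.475 and 0.392% (adjusted p = 0.038), and this call was lost without any 1 of the 6 plants (adjusted p of 0.0563 to 0.152). Of 17 photoprotection genes, 16 were tested, 1 rose and 1 fell. LUT5 (CYP97A3), a carotene hydroxylase of lutein synthesis, fell from 30.9, 32.7 and 30.9% to 24.2, 23.0 and 20.3% (adjusted p = 0.0019). KEA3, a thylakoid potassium/proton antiporter, rose from 31.9, 30.2 and 32.3% to 38.0, 35.4 and 38.3% (adjusted p = 0.022), but not without WT-r2 (0.0593), strs2-r1 (0.075) or strs2-r3 (0.0747).

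Across the 6 lists, the shares called in CG were 14.8% (RdDM), 7.69% (maintenance), 55.6% (demethylation), 16.7% (methylation-dependent), 10.5% (drought, cold and heat) and 12.5% (photoprotection), beside 14.9% of all genes tested, and the lists hold 9 to 27 genes each. With cytosines read at least 8 times in a plant, none of the calls named in these lists remained. The lists were chosen with earlier results of these data known.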

How the data were processed

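MethylC-seq of 3 WT and 3 strs2 plants was used. Per the labels and methods, the authors' trimming used Trim Galore 0.3.7 with cutadapt 1.9 and their alignment to TAIR10 used Bismark 0.14.5 on Bowtie2 2.2.9. The authors deposited counts of methylated and of all calls per cytosine for each plant, together with the methylated percent, which was not used. Cytosines below a depth of 4 were left out, as in the methods. The deposited mRNA counts per locus, made by the authors with featureCounts, gave gene coordinates and, as CPM, the naïve WT expression.

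Calls were summed over the gene span and over the 1 kb before it with Python 3.11.15 (numpy 2.4.6, pandas 2.3.3, scipy 1.17.1). Each gene with at least 20 calls in every plant and 10 methylated calls in all was tested by a logistic model with quasi-binomial dispersion, moderated across genes with limma 3.58.1 (R 4.3.3), never below 1, and an F test. P-values were adjusted by the Benjamini-Hochberg method over all genes tested in a context. Levels summed over genes were compared by an exact permutation test. Differences are means over plants in percentage points.

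Named genes were, per context, the 6 largest gains and the 6 largest losses among genes passing the test whose genotypes did not overlap, with STRS2 and every listed gene that passed. Genes and lists were chosen with earlier results of these data known. Alternatives were edgeR 4.0.16, limma on log2 ratios (offset of 1), the same after centring, a replicate block, each plant left out, other minimums and depths. Gene names came from RefSeq TAIR10.1, which matched 32897 of 33056 loci, and copies (90% identity over 50% of the gene) from blastn 2.17.0. Of the CG cytosines listed in WT-r1, 99.9962% are a CG in that reference. Intervals cover spread between plants. Reads carry no molecular identifiers, and reads of near-identical genes cannot always be placed. Of nuclear loci, 10367 overlap another, so that 375 of the CG genes share bases with another CG gene.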

Additional observations from a re-analysis of the deposited data

How the results depend on the processing

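Genes higher and genes lower in strs2 were found in every context and setting, apart from genes lower in CHH with limma. Their number changed with the cytosines kept and with the model. Higher in CG were 2019 genes, 1339 with limma after centring, 41 at depth 8 and 936 with cytosines at depth 8 in all 6 plants, an alternative chosen after seeing the drop at depth 8. Leaving out plants gave 1252 to 1890. Lower in CG were 1855 genes, against 27 at depth 8, 860 at depth 8 in all plants and 1265 to 1697 without 1 plant. Over cytosines at depth 4 in all 6 plants the CG counts rose, to 2559 higher and 2306 lower. The genes tested in CG numbered 26018, against 23028 at depth 8, 24093 at depth 4 in all plants and 6341 at depth 8 in all plants. The median dispersion in CG, the variance between plants relative to binomial sampling, was 1.74, and 4.37 at depth 8. It was 1.32 at depth 4 in all plants and 0.688 over 6341 genes at depth 8 in all plants. The cause was not tested.

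Higher in CHG were 97 genes, against 51 with edgeR, 29 with limma, 28 after centring, 34 at depth 8, 5 at depth 8 in all plants and 67 to 99 without 1 plant. Lower in CHG were 38, against 21, 9, 8, 12, 3 and 18 to 41 in the same order. Higher in CHH were 40, against 25, 4, 1, 20, 6 and 24 to 45. Lower in CHH were 18, against 0 with limma and after centring, 10 at depth 8, 4 at depth 8 in all plants and 15 to 24 without 1 plant. With limma 907 genes were lower in CHH at an unadjusted p below 0.05, 811 after centring, and edgeR called 14. At depth 8 in all plants only 649 genes were tested in CHG and 5850 in CHH.

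Genes that moved together in CG and CHG numbered 81, against 36 with limma, 35 after centring, 12 at depth 8, 1 at depth 8 in all plants and 57 to 82 without 1 plant. For CG and CHH it was 38, against 4, 1, 9, 3 and 29 to 35, and for CHG and CHH 33, against 3, 1, 15, 1 and 26 to 32. At most 2 genes moved in opposite directions in any pair of contexts and setting.

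The CG difference over all gene spans was 0.333 points, 0.148 as a mean over genes and 0.249 to 0.432 without 1 plant. For CHG it was 0.0241 (0.00377 to 0.0568) and for CHH -0.0173 (-0.0362 to 0.0137).

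Upstream regions numbered 2155 in CG, against 145 at depth 8, 307 at depth 8 in all plants and 1628 to 2085 without 1 plant. In CHG it was 170, against 105 with edgeR, 86 with limma, 87 after centring, 21 at depth 8, 2 at depth 8 in all plants and 100 to 165 without 1 plant. In CHH it was 39, against 7 at depth 8, 7 at depth 8 in all plants and 22 to 42 without 1 plant. At depth 8 in all plants only 1172 upstream regions were tested in CG, 335 in CHG and 1767 in CHH. With the replicate block 1329 upstream regions differed in CG and 86 in CHG, and gene counts stayed within 1.5 times, at 1466 higher and 1386 lower in CG. The replicate numbers did not pair the plants: correlations of same-numbered deviations were between -0.0327 and 0.0464.

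With edgeR, 3081 of the 3874 CG genes passed again (79.5%), all in the same direction. At depth 8, 68 of the 3738 that could be tested passed again, and at depth 8 in all plants 547 of 1081, of which 30 were called the other way. At depth 4 in all plants 3238 of 3820 passed again, 1 of them the other way, among 4865 genes called there. Of 80 named values past the threshold, 68 stayed with edgeR, 49 with limma, 75 with the block and 63 to 72 without 1 plant, but 24 of 59 that could be tested at depth 8 and 3 of 15 at depth 8 in all plants. At depth 8 the CG difference was -2.67 points in IDN2, -3.23 in PHE1, -8.23 in SNC1 and 9.00 in KEA3, none past the threshold, and at depth 4 in all plants it was 0.501 in DREB2B, no longer past it, and -15.4 in LUT5 (CYP97A3) and -12.2 in IDM2, both past it. With cytosines at depth 8 in all plants 2 changed sign, AT5G37270 in CG (6.62 points) and APE1L (0.0825 points), neither past the threshold.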
